A study of Mus musculus with 9 samples.

Results

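The expression of 10 genes of the Notch pathway was examined in embryonic mouse lenses deficient in *Mafg* and *Mafk*, which encode small Maf transcription factors. The genes were the ligand *Jag1*, the receptors *Notch1*, *Notch2* and *Notch3*, the glycosyltransferases *Lfng* and *Mfng*, the nuclear factors *Rbpj* and *Maml1* and the target genes *Hes1* and *Hey1*. They were chosen by symbol, and each of the 10 matched 1 entry among the 22013 entries of the table, of which 15820 carry a gene symbol. RNA was sequenced at stage E16.5 in 9 libraries, 3 for each of 3 genotypes, with 8 lenses pooled in each library. Control lenses (*Mafg*+/-:*Mafk*+/-) carry 1 knockout allele of each gene, compound KO lenses (*Mafg*-/-:*Mafk*+/-) lack *Mafg* and carry 1 knockout allele of *Mafk*, and double KO lenses (*Mafg*-/-:*Mafk*-/-) lack both. All 3 groups therefore carry at least 1 knockout allele of each gene, and no wild-type group was analysed here. The alleles are germline knockouts on an ICR background, so that tissues around the lens lack the factors as well. No treatment was given.

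Notch signaling passes from cell to cell. A ligand of the Jagged or Delta family on one cell binds a Notch receptor on its neighbor, the receptor is cleaved, and its intracellular part enters the nucleus, where it joins Rbpj and a Mastermind coactivator to switch on genes such as those of the Hes and Hey repressors. Fringe enzymes, among them Lfng and Mfng, add sugars to the receptor and so alter which ligands it responds to. In the lens, Jag1 is known as the main ligand, made by differentiating fiber cells, and signaling to the epithelium keeps epithelial cells dividing and supports the formation of secondary fibers.

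The values are normalized CPM, that is, the authors' CPM scaled by 1 factor per library. The depth per library is unknown, and therefore precision is described by the spread between libraries. *Mafg* was at 112.9, 120.7 and 134.5 normalized CPM in the control libraries, and at 10.1 to 24.1 in compound KO and 21.2 to 26.2 in double KO lenses. *Mafk* was at 5.2 to 6.3 in control, 4.3 to 5.3 in compound KO and 0.0 to 0.6 in double KO lenses. Both genes ran with the labels. The lens was recognizable in every library by its markers, with 7 fiber genes summing to between 38270 and 124304 and 5 epithelial genes to between 650 and 1117. One library stood apart. In compound KO replicate 1, the fiber sum was 38270 against 75346 to 124304 in the other 8 libraries, and the 7 mesenchyme markers summed to 2083 against 14.3 to 202. The 6 neural retina markers summed to 399 there against 25.9 to 139, the 4 retinal pigment epithelium markers that have an entry (of 5) to 675 against 3.3 to 31.9, and the 7 mural cell markers to 88.5 against 37.3 to 63.4, although *Rgs5* among them was lowest there (10.4 against 20.5 to 34.4). The 8 endothelial markers summed to 139 against 55.5 to 72.1, which came from *Kdr* (83.2 against 8.7 to 19.3). The other 7 endothelial markers summed to 55.3 there and to 44.2 to 56.5 in the other libraries. *Krt5*, 1 of 4 surface epithelium markers and the one with an entry, was at 144 there against 0.1 to 2.8. Macrophage markers (5 of 6 with an entry) summed to 25.9 against 4.8 to 15.5, and the 6 erythroid markers to 1423, within the range of the others (1168 to 3857). The main results on compound KO lenses are therefore also given without this library. In bulk RNA, fewer cells of a type and less RNA per cell cannot be told apart.

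Among the 10 genes, *Jag1* had by far the highest level in the lens. Levels were compared between genes as normalized CPM per kilobase of the Ensembl canonical transcript. The entries are at transcript level. Reads of the 10 genes may also sit in entries without a symbol, which was not tested. In control lenses, *Jag1* was at 69.6 ± 4.95 per kilobase (SD, n = 3 libraries), above 96.2% of the 14447 entries with a symbol and a length. *Lfng*, which encodes lunatic fringe, followed at 19.5 ± 1.87, and its range did not overlap with that of *Jag1*. *Hes1* at 8.99 ± 2.92, *Notch3* at 8.97 ± 1.17 and *Hey1* at 8.33 ± 0.506 per kilobase came next, and neighbors in this order overlapped. *Rbpj* at 5.76 ± 0.725, *Notch1* at 5.34 ± 0.502 and *Notch2* at 5.02 ± 0.250 formed a further run of neighbors with overlapping ranges. Below them, without overlap between neighbors, were *Maml1* at 3.76 ± 0.0998 and *Mfng*, which encodes manic fringe, at 1.20 ± 0.427, above 28.5% of entries. *Jag1*, *Lfng* and *Hes1* also followed each other in non-overlapping ranges in double KO lenses. In compound KO lenses *Jag1* and *Lfng* did not overlap, but *Notch1*, at 9.95 per kilobase, came before *Hes1* at 9.01 and its range (5.58 to 17.3) reached that of *Lfng* (16.7 to 18.7). In compound KO lenses the range of *Mfng* overlapped that of *Maml1*, and in double KO lenses it did not.

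The genes lie on 7 chromosomes of GRCm39, in GENCODE release M39. *Jag1* (chr2:136923373-136958693, minus strand) and *Notch1* (chr2:26347915-26406675, minus) share chromosome 2, and *Notch2* (chr3:97920800-98057677, plus) and *Hey1* (chr3:8726956-8732385, minus) share chromosome 3. *Rbpj* (chr5:53623494-53814704, plus) and *Lfng* (chr5:140593075-140601300, plus) are on chromosome 5, which also holds *Mafk* (chr5:139776804-139788408). *Lfng* lies 0.805 Mb from *Mafk*, while *Rbpj* lies 86.0 Mb from it. *Maml1* (chr11:50146461-50183190, minus) is on the chromosome of *Mafg*, 70.3 Mb away. *Mfng* is at chr15:78640074-78657718 (minus), *Hes1* at chr16:29882134-29886643 (plus) and *Notch3* at chr17:32339794-32385893 (minus).

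The promoters were read for the letters that Rbpj and small Maf dimers are known to bind. RefSeq promoters of GRCm38.p6, from 250 bases before to 50 bases after the start site, were at hand for 7 of the 10 genes, *Hes1*, *Hey1* and *Mfng* being without one. The Rbpj core TGGGAA, searched on both strands, occurred in the promoters of 2 of the 7 genes (*Lfng* and *Rbpj*) and in 25.6% of all 32851 promoters. Its longer form GTGGGAA, which contains the core, occurred in 1 of 7 (*Lfng*) and in 6.38% of all. TGACNNNGC, read by small Maf dimers, also occurred in 1 of 7 (*Lfng*) and in 12.4% of all. Among the 55 other pathway genes with a promoter, 18 held TGGGAA, 7 held GTGGGAA and 12 held TGACNNNGC. A match describes letters and not a bound site. The promoter of *Lfng* is shown because it alone among the 7 holds all of these, and that of *Jag1* because this is the ligand with the highest level and holds none. Each is given for the 250 bases before the start site, 5′ to 3′ on the strand of its gene (*Lfng* chr5:140607091-140607340, plus, and *Jag1* chr2:137116521-137116770, minus, both GRCm38.p6). Capitals mark TGACNNNGC (first base at −204), TGGGAA on the opposite strand (−135) and GTGGGAA (−109).
Lfng: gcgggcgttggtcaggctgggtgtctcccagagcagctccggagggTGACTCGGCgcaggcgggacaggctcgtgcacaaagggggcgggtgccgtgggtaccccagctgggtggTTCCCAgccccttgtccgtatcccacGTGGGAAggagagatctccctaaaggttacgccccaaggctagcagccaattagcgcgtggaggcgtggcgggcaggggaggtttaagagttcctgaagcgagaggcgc
Jag1: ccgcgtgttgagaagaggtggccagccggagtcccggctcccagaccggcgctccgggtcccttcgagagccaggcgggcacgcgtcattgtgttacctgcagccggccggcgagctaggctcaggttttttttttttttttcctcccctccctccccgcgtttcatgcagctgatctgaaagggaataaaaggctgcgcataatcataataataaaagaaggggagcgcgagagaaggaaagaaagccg

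The question of the study is which genes depend on *Mafg* and *Mafk* in the lens, and double KO against control lenses is its main comparison. Genes that reached 1 normalized CPM in 2 or more of the 6 libraries of a comparison were tested on log2(value + 1) by limma with an intensity trend (two-sided), with Benjamini-Hochberg adjustment across the whole table. A gene counted as called when its adjusted p did not exceed 0.05 and its level differed 1.5-fold or more. A looser rule took the unadjusted p in its place. All 10 Notch genes passed the filter in all comparisons. With 3 libraries against 3, an exact permutation test cannot give a p below 0.1, and it was not used. The labels do not say whether the libraries of a group came from separate litters, and p-values measure the spread between these pools of lenses.

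None of the 10 genes was called in double KO versus control lenses. Of the 14122 genes tested there, 51 (0.361%) were called. By the looser rule, 0 of the 10 genes passed against 400 (2.83%) of all genes. Without the fold threshold 2 passed, *Jag1* and *Hey1*. The share of all genes that pass without the fold threshold was not counted, so these 2 cannot be set against it. The groups did not overlap for 1 gene, *Jag1*, against 15.8% of all genes. The log2 fold change was above 0 for 3 of the 10 genes, with a median of −0.11 against 0.01 over all genes. The 95% intervals of 7 of the 10 genes stayed within a 1.5-fold change in both directions (*Jag1*, *Notch2*, *Notch3*, *Rbpj*, *Maml1*, *Hey1* and *Lfng*), and those of *Notch1*, *Mfng* and *Hes1* did not.

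**Figure D1:**
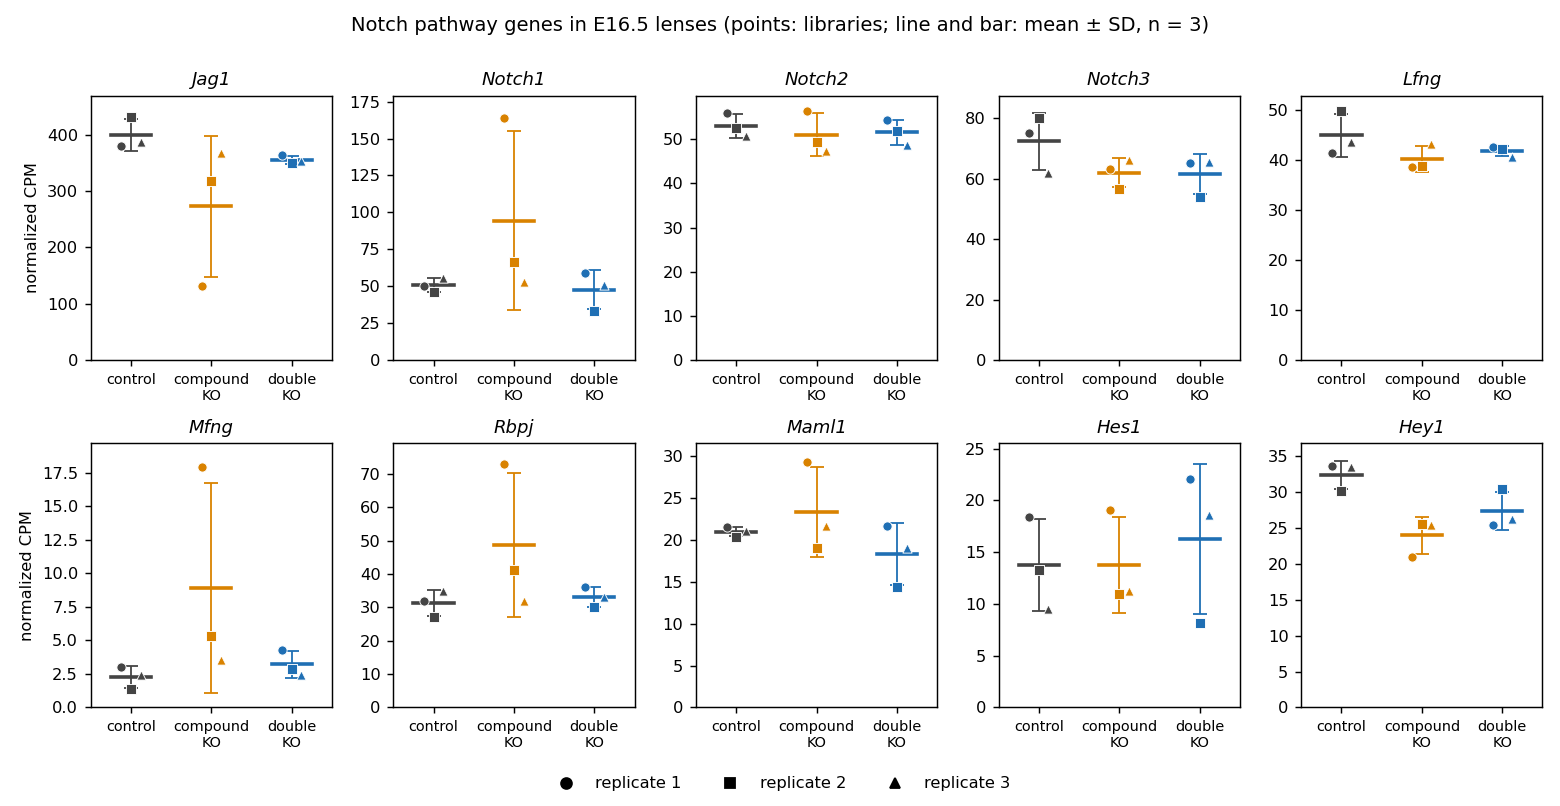
Normalized CPM (vertical axes, each from 0) of the 10 Notch pathway genes in 3 control, 3 compound KO and 3 double KO libraries. Points are libraries, with a shape for each replicate number, and lines and bars are the mean and SD of 3 libraries. Compound KO replicate 1 (circle) is the lowest library for *Jag1* at 131.6 and the highest for *Notch1*, *Rbpj*, *Mfng* and *Maml1*, while *Notch2*, *Notch3* and *Lfng* vary little.

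The ligand *Jag1* was at 379.9, 432.2 and 386.7 normalized CPM in control lenses and at 363.7, 350.3 and 353.2 in double KO lenses. All double KO libraries were thus below all control libraries, by a small margin. The means were 399.6 ± 28.4 and 356 ± 7.05 (SD, n = 3), a log2 fold change of −0.17 (standard error 0.061, 95% interval −0.32 to −0.01), with adjusted p = 0.457 by limma. In compound KO lenses *Jag1* was at 131.6, 318.2 and 368.8 normalized CPM. Here too every library was below the controls, and the library that stands apart was the lowest. The log2 fold change against control was −0.68 (standard error 0.39, interval −1.66 to 0.30, adjusted p = 0.486, limma), and without compound KO replicate 1 it was −0.22. When libraries were scaled by their totals only, the double KO and control ranges of *Jag1* overlapped (327 to 372 against 361 to 382 CPM), while the compound KO libraries stayed below the controls (highest 360.6 against a lowest control of 361.4). *Jag1* was higher in double KO than in compound KO lenses by 0.51 on the log2 scale (adjusted p = 0.665, limma), and by 0.05 without compound KO replicate 1. The lens fiber markers, which are defining genes of the cells known to make Jag1, summed to 106285 to 124304 in control, 75346 to 114197 in double KO and 38270 to 101010 in compound KO lenses. These markers differed among themselves. The lowest double KO sum was in replicate 1, where *Cryba1* was at 29248 against 57264 and 61430 in replicates 2 and 3. *Crybb1* was at 31601 there, between those 2 libraries (29449 and 35799). *Bfsp1* was below the controls in every knockout library (1292 to 3267 against 4519 to 5520), whereas *Crygs* overlapped them. The part of the fiber markers in the *Jag1* values was not tested.

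No receptor differed in double KO versus control lenses beyond the spread between libraries. *Notch2* was at 55.9, 52.5 and 50.7 normalized CPM in control, 56.5, 49.3 and 47.3 in compound KO and 54.3, 51.9 and 48.7 in double KO lenses. Its values lay in the same range in all 3 genotypes, with a log2 fold change of −0.04 in double KO versus control lenses (95% interval −0.20 to 0.12), or 0.0309 with scaling by library totals only. *Notch3* was at 75.3, 80.2 and 61.9 in control, 63.1, 56.8 and 66.4 in compound KO and 65.4, 54.1 and 65.7 in double KO lenses. Both knockout groups had lower means (not so in compound KO lenses with scaling by library totals only, where the log2 fold change was 0.0398), but 1 control library lay within their ranges, and the log2 fold change of −0.23 in double KO lenses had an interval from −0.54 to 0.09 (adjusted p = 0.650, limma).

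*Notch1* varied most among the receptors. It was at 50.2, 46.1 and 55.6 normalized CPM in control, 163.9, 66.3 and 52.9 in compound KO and 58.8, 33.3 and 50.8 in double KO lenses. The groups overlapped in each comparison, and compound KO replicate 1 was far above the next library. The log2 fold change was −0.12 in double KO versus control lenses (interval −0.66 to 0.42) and 0.71 in compound KO versus control lenses (interval −0.33 to 1.76), the latter 0.23 without compound KO replicate 1. Neural retina markers summed to 399, 139 and 77.0 in the compound KO libraries, in the order in which *Notch1* is given. Their sum was lowest of its group in control replicate 2 (25.9) and double KO replicate 2 (29.4), the libraries with the lowest *Notch1*. Of these 6 markers, *Crx* was at 0 in those last 2 libraries and the others were above 0 in all 9. In control lenses the retina sum was highest in replicate 1 (68.1 against 61.3 in replicate 3), while *Notch1* was highest in replicate 3. The order was not particular to retina. In the compound KO libraries mesenchyme markers summed to 2083, 141 and 56.6 and pigment epithelium markers to 675, 31.9 and 13.5. Both were also lowest of their group in control replicate 2 and double KO replicate 2. The part of these markers in the *Notch1* values was not tested.

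The fringe genes differed from each other in their pattern. *Lfng* was at 41.4, 49.7 and 43.6 normalized CPM in control, 38.6, 38.8 and 43.1 in compound KO and 42.5, 42.1 and 40.6 in double KO lenses. It stayed within a narrow range in all 9 libraries, with log2 fold changes of −0.10 (interval −0.30 to 0.10) in double KO and −0.15 in compound KO lenses against control, the latter 0.10 with scaling by library totals only. *Mfng* was low, at 3.0, 1.4 and 2.4 in control, 17.9, 5.3 and 3.5 in compound KO and 4.3, 2.9 and 2.4 in double KO lenses. All compound KO libraries were above all control libraries, whereas the double KO libraries overlapped the controls. Its log2 fold change was 1.35 in compound KO versus control lenses (standard error 0.57, interval −0.06 to 2.75, adjusted p = 0.481, limma), the largest of the 10 genes, and 0.74 without compound KO replicate 1. The value in double KO versus control lenses was 0.37 (interval −0.27 to 1.01). In the compound KO libraries, mesenchyme markers summed to 2083, 141 and 56.6 and retina markers to 399, 139 and 77.0, in the same order as *Mfng*. Markers of pigment epithelium, surface epithelium, mural cells, macrophages and endothelium fell in that order as well, and those of erythroid cells did not. The part of these markers in the *Mfng* values was not tested.

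Neither nuclear factor differed in double KO versus control lenses beyond the spread between libraries. *Rbpj*, the DNA-binding partner of the cleaved receptor, was at 32.0, 27.1 and 34.9 normalized CPM in control, 73.1, 41.2 and 31.9 in compound KO and 36.2, 30.1 and 33.0 in double KO lenses. The double KO and control ranges overlapped, and compound KO replicate 1 was again the highest. The log2 fold change of *Rbpj* was 0.08 in double KO (interval −0.21 to 0.37) and 0.54 in compound KO lenses (interval −0.23 to 1.31), the latter 0.21 without that library. *Maml1*, a coactivator, was at 21.5, 20.4 and 21.1 in control, 29.3, 19.0 and 21.7 in compound KO and 21.7, 14.4 and 19.0 in double KO lenses. The control libraries were tight and those of the knockouts lay on both sides of them.

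The targets *Hes1* and *Hey1*, both transcriptional repressors, differed in their pattern. *Hey1* was at 33.6, 30.1 and 33.4 normalized CPM in control, 20.9, 25.5 and 25.4 in compound KO and 25.4, 30.4 and 26.2 in double KO lenses. All compound KO libraries were below all control libraries, and double KO replicate 2 lay within the control range. Against control, the log2 fold change of *Hey1* was −0.42 in compound KO lenses (standard error 0.11, interval −0.70 to −0.14, adjusted p = 0.481) and −0.24 in double KO lenses (standard error 0.091, interval −0.46 to −0.01, adjusted p = 0.475, limma in both). Both comparisons share the control libraries. Without compound KO replicate 1 the first was −0.33 (adjusted p = 0.289, limma), so that the lower values of *Hey1* in compound KO lenses do not rest on that library. With scaling by library totals only, it was −0.18 and the groups overlapped (24.8 to 28.7 against 26.6 to 32.4 CPM). The 5 lens epithelium markers summed to 1104 to 1117 in control, 650 to 998 in compound KO and 994 to 1071 in double KO lenses. The sum was thus lower in every knockout library, but its members differed, with *Cdh1* below the controls in all 6 knockout libraries (79.9 to 185.5 against 228.2 to 239.2) and *Pax6* above them in all compound KO libraries (139.8 to 162.7 against 88.0 to 121.1). *Cdh2* made the largest part of the sum (472.9 to 495.2 in control). Whether the 5 genes mark the epithelium alone, and their part in the *Hey1* values, was not tested. *Hes1* was at 18.4, 13.3 and 9.5 in control, 19.1, 11.0 and 11.2 in compound KO and 22.1, 8.2 and 18.6 in double KO lenses. It differed about as much within each group as between groups, and its log2 fold changes of 0.17 (interval −0.85 to 1.19) in double KO and 0.00 (interval −0.76 to 0.77) in compound KO lenses leave a change of more than 1.5-fold in either direction within the error.

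**Figure D2:**
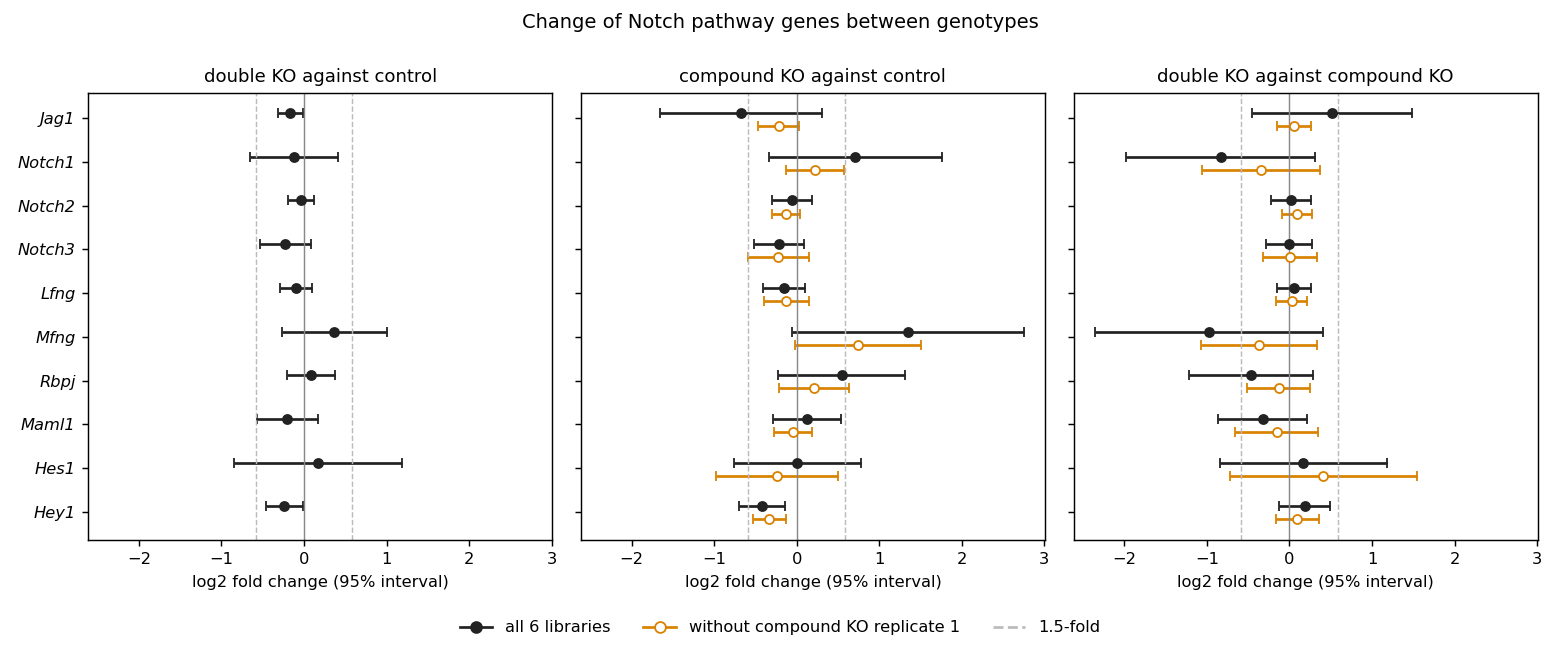
Log2 fold changes (horizontal axes) with 95% intervals of the 10 genes in the 3 comparisons. Filled points are fits of all 6 libraries, open points leave out compound KO replicate 1, and dashed lines mark 1.5-fold. Without that library the values of *Jag1*, *Notch1*, *Mfng* and *Rbpj* lie nearer to 0 in both comparisons with compound KO lenses, while *Hey1* is at −0.42 with it and −0.33 without it against control.

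None of the 10 genes was called in compound KO versus control lenses either, where 0 of 14348 genes (0%) were called by limma. By the looser rule, 0 of 10 passed against 766 (5.34%) of all genes. One gene, *Mfng*, passed that rule with a pseudocount of 0.1, with the replicate number as a block or in one fit of all 9 libraries, and *Mfng* and *Rbpj* passed it without compound KO replicate 3. The share of all genes passing under these settings was not counted, so these passes cannot be set against it. The groups did not overlap for 3 of 10 genes, *Jag1*, *Hey1* and *Mfng*, against 23.9% of all genes. The direction was split, 5 up and 5 down, with a median log2 fold change of −0.03 against 0.02 over all genes. With scaling by library totals only, which moved the median of all genes to 0.24, 8 of the 10 were above 0 with a median of 0.22.

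In double KO versus compound KO lenses, which differ in *Mafk* alone among the knocked-out genes, 0 of the 10 genes were called against 2 of 14402 (0.0139%). By the looser rule, 0 passed against 440 (3.06%), and the groups overlapped for all 10 genes, where 15.6% of all genes had no overlap. *Mfng* and *Rbpj* passed the looser rule, with lower values in double KO lenses, when compound KO replicate 3 was left out. The share of all genes passing in that fit was not counted. The members were split 5 above and 5 below 0 (2 and 8 with scaling by library totals only, where the median of all genes moved to −0.17). The largest values were −0.98 for *Mfng*, −0.83 for *Notch1* and 0.51 for *Jag1*, which became −0.37, −0.35 and 0.05 without compound KO replicate 1.

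**Figure D3:**
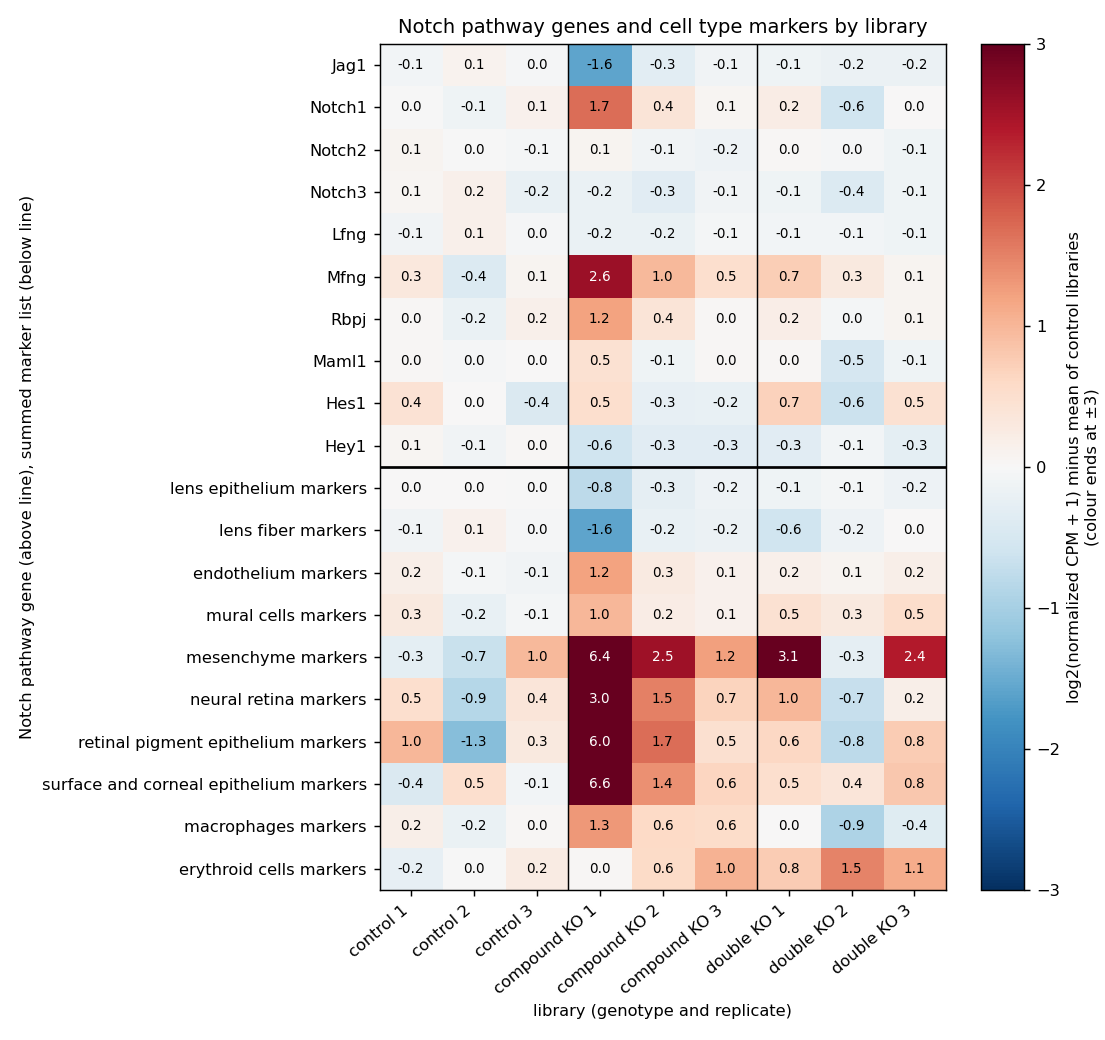
Heatmap of log2(normalized CPM + 1) minus the mean of the control libraries, for the 10 genes (above the line) and for summed cell type markers (below the line) in each of the 9 libraries, with the difference printed in each cell. Compound KO replicate 1 has the lowest *Jag1* and lens fiber sum (both −1.6) and the highest *Mfng* (2.6), *Notch1* (1.7) and sums of mesenchyme (6.4), neural retina (3.0) and pigment epithelium (6.0) markers.

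Of 73 further genes of the pathway, listed by their role, 70 had an entry (*Dlk2*, *Rbpjl* and *Hes7* had none). None was called in any of the 3 comparisons. In double KO versus control lenses 67 could be tested, with a median log2 fold change of 0.04 against 0.01 over all genes. By the looser rule, 4 (5.97%) passed against 2.83% of all genes, and 8 (11.9%) had no overlap against 15.8% of all genes. Of the 4, 3 had higher values in double KO lenses (*Dlk1*, *Kdm5a* and *Cdkn1c*) and 1 had lower (*Fbxw7*). *Dlk1* was below the minimum of 1 in every control library. It entered the test only through the double KO libraries, so that its direction was set by the filter. With 1 library left out, *Kdm5a* and *Cdkn1c* passed in all 6 fits, *Dlk1* did not without control replicate 2 and *Fbxw7* did not without double KO replicate 3. By role, 1 of 4 ligands (*Dlk1*), 1 of 12 nuclear corepressors, 1 of 13 ubiquitin ligases and trafficking factors and 1 of 3 cell cycle genes passed. None passed of 6 glycosylation enzymes, 10 genes of receptor cleavage, 7 nuclear coactivators, 11 target genes or the remaining receptor, *Notch4*.

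*Kdm5a* had the largest difference among these. It encodes a histone H3K4 demethylase known as a corepressor with Rbpj. It was at 10.4, 8.4 and 3.1 normalized CPM in control, 12, 13.9 and 10.8 in compound KO and 48.0, 55.4 and 33.2 in double KO lenses. Every double KO library was above all 6 others. On the log2 scale *Kdm5a* was higher by 2.58 ± 0.42 (SE, adjusted p = 0.132) than in control and by 1.79 ± 0.21 (SE, adjusted p = 0.210) than in compound KO lenses by limma, and 1.78 against compound KO lenses without their replicate 1. Over fits without 1 library each, the first value stayed between 2.14 and 2.88 and the adjusted p between 0.123 and 0.303. The adjusted p thus missed the threshold in each of these fits. The entries are at transcript level, and reads of *Kdm5a* may also sit in entries without a symbol, which was not tested.

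*Fbxw7*, a subunit of a ubiquitin ligase that marks the cleaved receptor for degradation, was at 4.2, 5.4 and 12.8 in control, 41.4, 11.2 and 8.2 in compound KO and 2.8, 2.6 and 0.9 in double KO lenses. Double KO libraries were the lowest 3 of the 9. Its log2 fold change was −1.38 against control (−0.96 to −1.67 with 1 library left out, adjusted p = 0.406, limma) and −2.51 against compound KO lenses (adjusted p = 0.665, limma), the latter −1.84 without compound KO replicate 1. *Cdkn1c*, a cell cycle inhibitor known to be made as lens cells leave the cycle, was at 190.4, 267.3 and 203.9 in control, 99.8, 284.8 and 167.2 in compound KO and 358.2, 429.0 and 349.6 in double KO lenses. All double KO libraries were again above the 6 others, higher by 0.79 ± 0.15 on the log2 scale (SE, adjusted p = 0.194, limma) than control and by 1.16 (adjusted p = 0.665, limma) than compound KO lenses, the latter 0.79 without compound KO replicate 1. *Dlk1*, a non-canonical ligand, was at 0.2 to 0.4 in control, 1.2 to 27.4 in compound KO and 1.3 to 6.0 in double KO lenses. Its log2 difference was 1.44 in double KO against control lenses (adjusted p = 0.372, limma), and 0.94 without double KO replicate 1. The control libraries were the lowest 3, and all were below the minimum of 1 used in the filter. Mesenchyme markers summed to 14.3 to 46.6 in control, 56.6 to 2083 in compound KO and 19.3 to 202 in double KO lenses, and their part in *Dlk1* was not tested.

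In compound KO versus control lenses, 3 of the 69 further genes tested (4.35%) passed the looser rule, against 5.34% of all genes. All 3 were higher in compound KO lenses (*Dll1*, *Dll4* and *Sox9*). The groups did not overlap for 14 (20.3%), against 23.9% of all genes, so neither share exceeded that of all genes. The median log2 fold change of the 69 genes was 0.21 against 0.02 over all genes. Ligands (median 1.40 over 5) and target genes (median 0.67, 10 of 11 above 0) were highest, and without compound KO replicate 1 these medians were 0.71 and 0.12. Among the 5 ligands, *Dlk1* (0.2 to 0.4 in control) and *Dll3* (0.2 to 1.0 in control) met the filter of the 6-library fit through compound KO libraries. The filter thus favoured higher values for both, and the ligand median includes them. *Dll1*, a ligand, was at 5.0, 1.7 and 4.4 normalized CPM in control, 24.8, 9.6 and 6.1 in compound KO and 5.9, 1.9 and 3.8 in double KO lenses. *Dll4*, the ligand known from vessels, was at 3.5, 3.3 and 3.0, then 21.4, 6.6 and 5.4, then 8.3, 2.6 and 5.2. *Sox9*, a transcription factor, was at 3.5, 0.9 and 2.5, then 27.6, 6.8 and 5.3, then 5.6, 2.6 and 5.9. The sums of retina markers were 25.9 to 68.1 in control and 77.0 to 399 in compound KO lenses. Higher sums were not particular to retina. Those of mesenchyme were 14.3 to 46.6 and 56.6 to 2083, and those of pigment epithelium 3.3 to 19.5 and 13.5 to 675. The 7 endothelial markers other than *Kdr* summed to 44.2 to 53.0 and 51.5 to 55.3. The part of all these markers in the values of the 3 genes was not tested. For all 3 genes, the compound KO libraries were above all controls and replicate 1 was far above the rest. The log2 fold changes were 1.49, 1.27 and 1.85 (adjusted p = 0.481 for each, limma), and 0.97, 0.71 and 1.17 without compound KO replicate 1, where *Dll1* no longer passed the looser rule. Over the 6 fits that leave out 1 library each, *Dll1* passed the looser rule in 1 (without compound KO replicate 3), *Dll4* in 3 (not without any 1 of the controls) and *Sox9* in 4 (not without control replicate 2 or 3).

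Without compound KO replicate 1, 4 further genes passed the looser rule in compound KO versus control lenses. These were *Dll4*, *Dlk1* and *Sox9*, which were higher, and the coactivator *Maml2*, with a log2 fold change of −1.20 (adjusted p = 0.224, limma), a gene picked out after its values were seen. *Dlk1* met the filter only through compound KO libraries. The share of all genes passing in that fit was not counted, so the 4 cannot be set against it. *Maml2* was at 7.3, 9.0 and 9.4 in control, 11.0, 3.9 and 2.5 in compound KO and 5.7, 3.9 and 0.0 in double KO lenses. Apart from compound KO replicate 1, every knockout library was below the controls.

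In double KO versus compound KO lenses, 5 of the 69 further genes tested (7.25%) passed the looser rule, against 3.06% of all genes. *Kdm5a* and *Cdkn1c* were higher in double KO lenses, and *Jag2*, *Dll1* and *Fbxw7* were lower. The groups did not overlap for 6 of the 69 (8.7%), against 15.6% of all genes. Without compound KO replicate 1, 4 passed: *Kdm5a*, *Cdkn1c* and *Fbxw7* again and, picked out after its values were seen, the fringe gene *Rfng* (log2 fold change −1.10, adjusted p = 0.830, limma), while *Jag2* and *Dll1* (−0.92) did not. The share of all genes passing in that fit was not counted, so the 4 cannot be set against it. With each library left out singly, *Kdm5a* and *Fbxw7* passed in all 6 fits, *Cdkn1c* in 3 (not without compound KO replicate 3 or double KO replicate 1 or 2), *Dll1* in 2 (without compound KO replicate 3 or double KO replicate 1) and *Jag2* in 2 (without compound KO replicate 2 or 3). *Jag2*, the second Jagged ligand, was at 6.3, 4.3 and 3.2 in control, 16.3, 7.0 and 6.9 in compound KO and 5.1, 4.0 and 4.7 in double KO lenses. Its compound KO libraries were above the 6 others, and the log2 fold change of −0.88 in double KO versus compound KO lenses (adjusted p = 0.665, limma) was −0.51 without compound KO replicate 1. Median values were −0.15 over the 69 genes, −0.88 over 5 ligands and −0.67 over 11 target genes, against −0.01 over all genes. Without compound KO replicate 1 they were −0.37 over the 4 ligands then tested and −0.19 over the target genes. The ligand left out there, *Dll3*, was at 0.1 to 0.9 in double KO lenses. It entered the test only through compound KO libraries, so that its direction in the median of 5 was set by the filter.

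**Figure D4:**
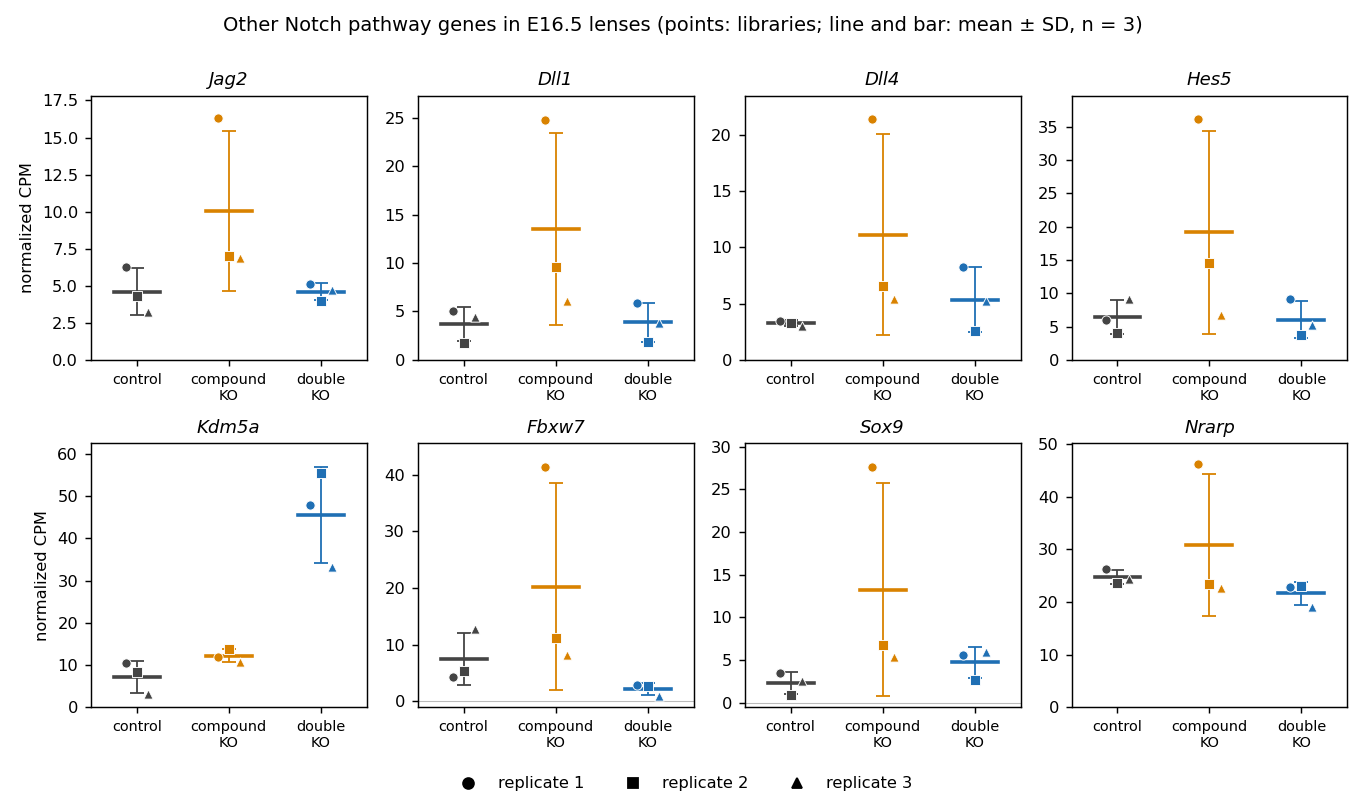
Normalized CPM (vertical axes) of 8 further genes of the pathway in the 9 libraries, with the mean and SD of each group. Double KO libraries are apart from the 6 others for *Kdm5a* (33.2 to 55.4 against 3.1 to 13.9) and lowest for *Fbxw7*, and compound KO replicate 1 is the highest library for *Jag2*, *Dll1*, *Dll4*, *Hes5*, *Fbxw7*, *Sox9* and *Nrarp*.

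*Hes5*, *Nrarp* and *Ccnd1*, target genes picked out after their values were seen, depended on compound KO replicate 1 to different degrees. *Hes5* was at 6.0, 4.1 and 9.2 in control, 36.1, 14.5 and 6.8 in compound KO and 9.1, 3.7 and 5.3 in double KO lenses. *Nrarp*, a feedback inhibitor of the pathway, was at 26.2, 23.7 and 24.4, then 46.3, 23.4 and 22.6, then 22.8, 23.0 and 19.1. *Ccnd1*, cyclin D1, was at 266.6, 228.7 and 275.7, then 1094.3, 409.6 and 318.0, then 339.2, 255.1 and 297.6. In each of them the other compound KO libraries were closer to the controls than replicate 1 was, though for *Ccnd1* both were still above every control. For *Nrarp* the log2 fold change in compound KO versus control lenses was 0.22 with and −0.10 without that library, and for *Hes5* it was 1.21 and 0.62, with groups that overlapped. For *Ccnd1* it was 1.03 with and 0.49 without it (interval 0.11 to 0.87, adjusted p = 0.360, limma).

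Genes with a pattern most like that of a member were sought among 8151 entries with a symbol and a mean of at least 10, by Pearson's r of log2(value + 1) over the 9 libraries. The nearest to *Jag1* were *Sptb* and *Cpeb2* (both r = 0.998) and *Pitx3* (r = 0.997), a lens transcription factor. Over the 8 libraries without compound KO replicate 1 these were 0.967, 0.964 and 0.969. Nearest to *Lfng* were *Anapc7* (0.961), *Ccdc174* (0.922) and *Ddx54* (0.920), at 0.963, 0.933 and 0.915 over the 8 libraries. For *Hes1* they were *Abhd17c* (0.902), *Gpc4* (0.888) and *Zfp324* (0.886), at 0.939, 0.872 and 0.914. The libraries share 3 genotypes, a scaling factor each and the library that stands apart, so that these values describe likeness in these 9 libraries.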

How the data were processed

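RNA-seq of E16.5 lenses gave 9 libraries, 3 per genotype, grouped as labelled. The submitters' processing notes name Trimmomatic, HISAT2, StringTie, Cufflinks, edgeR and the build mm39. Reads were strand-specific and paired-end. The deposited values are a signal normalized by the authors, CPM multiplied by 1 composition factor in each library, at 1 decimal. Library totals ranged from 728036 to 1131184 and are not depths, which are unknown. Scaling sets what counts as unchanged, and small differences depend on it.

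Here, limma 3.58.1 (R 4.3.3, trend) was run on log2(value + 1) for each pair of groups, and checked on simulated data. Entries without a symbol were left out. Figures and descriptions used Python 3.11.15, numpy 2.4.6, pandas 2.3.3 and matplotlib 3.10.9. Named are the 10 genes, *Mafg*, *Mafk*, further pathway genes past the looser rule (unadjusted p, 1.5-fold) in any comparison, the 3 entries most like *Jag1*, *Hes1* and *Lfng*, and leading markers; exceptions are stated. The genes and lists were chosen with earlier results of these data known. Alternatives were upper quartile scaling, scaling by library totals only, no filter or a stricter one, one fit of all libraries, a replicate block, a pseudocount of 0.1, no fold threshold and each library left out. Counts of further pathway genes and list medians without compound KO replicate 1, and the endothelial sum without *Kdr*, were added after seeing the data. Protein sequences were not used here.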

Additional observations from a re-analysis of the deposited data

How the results depend on the processing

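None of the 10 genes was called in any comparison under any alternative that was run, and the lowest adjusted p of a member in any of them was 0.372 (double KO against control), 0.289 (compound KO against control) and 0.472 (double KO against compound KO), all by limma. The genes called over the whole table moved more. In double KO versus control lenses they numbered 51, 21 in one fit of all 9 libraries, and 22 to 47 with 1 library left out (22 without control replicate 3). In compound KO versus control lenses they numbered 0, 2 in one fit of all libraries, and 0 to 13 with 1 left out (13 without compound KO replicate 1). In double KO versus compound KO lenses they numbered 2, 5 in one fit of all libraries, 0 with a minimum of 1 in all libraries, 1 with a pseudocount of 0.1, and 1 to 6 with 1 left out (6 without compound KO replicate 1). The cause of these moves was not tested.

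The labels do not say whether equal replicate numbers pair the libraries. Deviations of same-numbered libraries correlated by −0.106 to 0.216. Differently numbered libraries were not compared in this way, so these values cannot settle it. With the replicate number as a block, 10 genes passed in double KO versus control lenses and 0 between the knockouts, and no member was called.

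With scaling by library totals only, the sign turned for *Notch2* (0.0309 in double KO and 0.20 in compound KO lenses against control, −0.16 between the knockouts), *Notch3* (0.0398) and *Mafk* (0.00802) in compound KO lenses against control, *Lfng* (0.10 in compound KO lenses against control, −0.13 between the knockouts) and *Hes1* (−0.0109 between the knockouts). With upper quartile scaling it turned for *Hes1* in compound KO lenses against control (−0.0020) and *Notch3* between the knockouts (0.0012). With 1 library left out, signs turned in double KO against control lenses for *Rbpj* (−0.0173 to 0.16), *Hes1* (−0.0889 to 0.58), *Notch1* (−0.29 to 0.11) and *Notch2* (−0.0745 to 0.0026), in compound KO against control lenses for *Hes1* (−0.24 to 0.23) and *Maml1* (−0.0458 to 0.25), and between the knockouts for *Notch2* (−0.0325 to 0.0933), *Notch3* (−0.0729 to 0.0797) and *Hes1* (−0.0938 to 0.57). *Mafk* in double KO versus control lenses had an adjusted p of up to 0.0862 (limma) with 1 library left out. Depth limits are unknown, and values under about 5 normalized CPM, as for *Mfng*, are drawn towards 0 on the log2 scale by the pseudocount.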
